A study of Mus musculus with 13 samples.

Results

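The expression of 10 genes of the DNA damage checkpoint was followed in single mouse oocytes before and after meiosis I. The genes were *Atm*, *Atr*, *Chek1*, *Chek2*, *Mdc1*, *Trp53bp1*, *Abraxas1*, *Mum1*, *Trp53* and *Trp63*. They were taken by symbol, and all 10 were found among the 18939 genes of the count tables and the 49686 genes of the FPKM table. *Abraxas1* and *Mum1* stand on the study's list of DNA repair genes reduced in oocytes matured from the NSN type, a list chosen on these libraries. The difference between the MII groups is therefore described below and was not tested for any of the 10 genes.

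RNA was sequenced from 13 single oocytes of C57BL/6 females aged 3 to 4 weeks, collected 48 h after PMSG, a gonadotropin that stimulates follicle growth. All oocytes, in every group, had been injected at the GV stage (germinal vesicle, before meiosis resumes) with mRNA for fibrillarin tagged with GFP, and held for 6 h in Cilostamide, an inhibitor that keeps the GV intact. The nucleolar pattern of the tagged protein set each oocyte as NSN (chromatin not surrounding the nucleolus) or SN (chromatin surrounding it). There were 3 SN GV and 3 NSN GV oocytes, and 4 SN-MII and 3 NSN-MII oocytes that had been released and matured in vitro to metaphase II. Each oocyte is 1 replicate. No source states from how many females the oocytes came, so the p-values measure the spread between these single oocytes only.

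Cells sense broken DNA through kinases of the PIKK family. ATM responds to double-strand breaks and ATR to single-stranded DNA, and they activate the checkpoint kinases CHK2 and CHK1 in turn. MDC1 and 53BP1 gather on chromatin beside a break, Abraxas holds the BRCA1-A complex there, and MUM1 is a PWWP-domain protein that binds 53BP1. The transcription factor p53 acts downstream in most cells, whereas p63 is known as the factor that removes oocytes with damaged DNA. A full-grown oocyte makes little or no new RNA while it matures, so its RNA is mainly stored, translated or degraded. At the GV stage the types differed in this study. The paper reports that NSN GV oocytes took up EU, a label of newly made RNA, while SN GV oocytes showed almost none.

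The libraries held 7140416 to 8846287 counts each. The oocyte marker list was detected in full in each group, led by *Gdf9*, with a summed level of 12162 to 17302 FPKM. Of these 12 markers, 4 rose and 6 fell between GV and MII, where 31.7% of all genes tested rose and 36.9% fell. The 12 cumulus and granulosa cell markers summed to 27.3 to 65.2 FPKM, mainly *Cyp19a1*, while *Foxl2* and *Lhcgr* were listed at 0 in all 13 libraries. Of the 5 of these markers that could be tested between the stages, 2 rose and 0 fell, beside the same shares over all genes. The 4 immune and blood markers in the table summed to at most 0.35 FPKM, and none had counts enough for a test. MII libraries had fewer genes detected than GV libraries (11579 to 12511 against 12685 to 13333), and their 10 most abundant genes took a larger share of the counts (8.92% to 12.1% against 5.47% to 6.60%). The third NSN-MII and the fourth SN-MII oocytes stood apart within their groups, with the fewest genes detected and the largest shares for those 10 genes (12.1% and 11.03%).

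The genes spanned a wide range of levels. In FPKM, which is scaled by the transcript length assigned to each gene, *Chek1* and *Trp53bp1* were the most abundant of the 10 in all 4 groups. Their libraries overlapped each other and lay above those of the next gene. This order and the one below depend on the assigned lengths. For *Trp53bp1* that length was 1.23 to 1.39 kb, against a longest annotated transcript of 9.62 kb. For *Atm*, *Chek2* and *Mdc1* it varied widely between oocytes, as described further on. In SN GV oocytes *Chek1* was at 270.6 ± 28.7 FPKM (SD, n = 3), above 98.0% of the genes in the count tables. *Mum1*, *Abraxas1*, *Trp53* and *Trp63* followed in that order at the GV stage, with overlap between *Mum1* and *Abraxas1* in SN GV oocytes only, and *Mdc1*, *Atr*, *Atm* and *Chek2* were lowest, with libraries that overlapped from each to the next. At MII the order changed in the middle. *Trp53* moved up to the third place, where its libraries overlapped those of *Abraxas1*, and *Mum1* dropped to the fifth place in SN-MII oocytes and the seventh in NSN-MII oocytes.

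**Figure D1:**
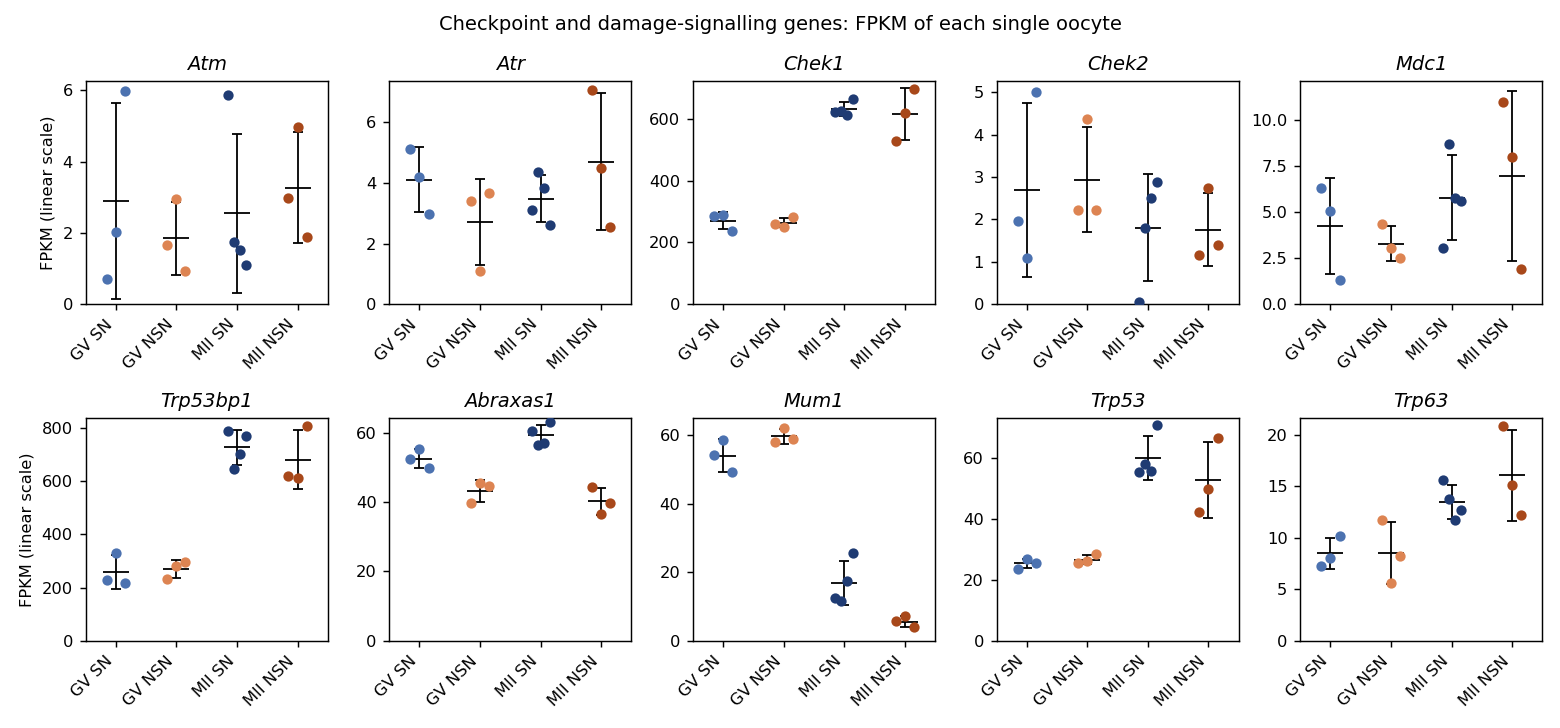
FPKM of each of the 10 genes in every single oocyte, on linear axes that start at 0 and differ between panels. Points are oocytes, bars are the mean and SD of each group. *Chek1*, *Trp53bp1* and *Trp53* are higher in every MII oocyte than in any GV oocyte, *Mum1* is lower in every MII oocyte, and *Atm*, *Atr*, *Chek2* and *Mdc1* overlap between the stages.

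To ask how these RNAs differed before and after meiosis I, the mean of the MII groups was compared with the mean of the GV groups. Different oocytes were sequenced at each stage, and those at MII had completed maturation. The paper reports a lower rate of polar body extrusion in NSN than in SN oocytes. Whether the oocytes that matured differed from the others already at the GV stage was not tested. Of the 10 genes, *Chek1*, *Trp53bp1*, *Trp53* and *Trp63* rose, *Mum1* fell, and the other 5 did not pass the test (edgeR's quasi-likelihood test, adjusted p under 0.05). Thus 5 of the 10 genes were called, against 68.6% of the 11375 genes tested. By direction, 4 of the 10 were called higher, against a background of 31.7%, and 1 was called lower, against 36.9%. Shares this close to the background do not set the 10 genes apart from other genes. The MII libraries that served to choose *Abraxas1* and *Mum1* are part of this test. The median log2 change was 0.66 for the 10 genes and −0.10 for all genes tested. Each value is a share of its library, and the RNA was primed from its poly(A) tail, so more RNA, less loss than other RNAs and a longer tail cannot be told apart.

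*Atm* (chromosome 9, 53439149 to 53536740, minus strand, GRCm38), the kinase of double-strand breaks, was sparse. It had 60, 52 and 73 counts in SN GV oocytes and 102, 51 and 30 in NSN GV oocytes. At MII it had 84, 117, 57 and 24 counts in SN oocytes and 208, 106 and 48 in NSN oocytes. The highest counts were in the first NSN-MII oocyte, and the stages overlapped. The log2 change from GV to MII was 0.72 (standard error 0.37, adjusted p = 0.0950). Without the fourth SN-MII oocyte it was 0.86, with an adjusted p of 0.0327, and without the first NSN GV oocyte 0.95, with an adjusted p of 0.0435, so 1 library decides whether *Atm* passes.

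*Atr* (chromosome 9, 95857597 to 95951781, plus strand), the kinase of single-stranded DNA, ranged from 49 counts in the second NSN GV oocyte to 489 in the first NSN-MII oocyte. Its log2 change with stage was 0.54 (standard error 0.35, adjusted p = 0.188). Its exons share 726 bases with the antisense gene 1700065D16Rik and 462 bases with the antisense gene Gm16794, and no source states that the counting used strand.

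*Chek1* (chromosome 9, 36708482 to 36727065, minus strand) encodes the kinase that ATR activates and that holds back entry into M phase. Its level was 284.1, 290.1 and 237.7 FPKM in SN GV oocytes and 260.1, 251.3 and 281.8 FPKM in NSN GV oocytes. In SN-MII oocytes it was 624.0, 625.6, 612.7 and 664.9 FPKM, and in NSN-MII oocytes 529.4, 621.2 and 697.5 FPKM. Every MII oocyte was above every GV oocyte. The highest value in each MII group came from the fourth SN-MII and the third NSN-MII oocyte, the pair that stood apart. *Chek1* rose 2.45-fold, a log2 change of 1.30 (standard error 0.14, adjusted p = 5.25e-07), and the change was 1.27 within SN and 1.32 within NSN oocytes.

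*Chek2* (chromosome 5, 110839979 to 110874145, plus strand), the kinase downstream of ATM, was the most sparsely counted. It had 19, 8 and 49 counts in SN GV oocytes and 42, 42 and 32.3 in NSN GV oocytes, against 1, 20, 6 and 13 in SN-MII and 22, 38 and 9 in NSN-MII oocytes. The stages overlapped. The log2 change of −0.92 had a standard error of 0.56 and did not pass (adjusted p = 0.155).

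*Mdc1* (chromosome 17, 35841515 to 35859670, plus strand), the adaptor that reads phosphorylated H2AX, had 71.0 to 126.0 counts in the 6 GV oocytes. It had 120.0 to 187.0 counts in SN-MII oocytes and 244, 148.9 and 30 in NSN-MII oocytes. The third NSN-MII oocyte was the lowest of all 13. The log2 change was 0.61 (standard error 0.31, adjusted p = 0.0916). Without that oocyte it was 0.80 and passed (adjusted p = 0.00491).

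*Trp53bp1* (chromosome 2, 121193281 to 121271407, minus strand) encodes 53BP1, which steers break repair toward end joining. Its level was 227.2, 329.9 and 216.0 FPKM in SN GV and 232.3, 282.1 and 295.0 FPKM in NSN GV oocytes. It was 788.5, 645.5, 700.8 and 770.2 FPKM in SN-MII and 617.9, 612.4 and 806.9 FPKM in NSN-MII oocytes. The stages were separate in both types of oocyte. *Trp53bp1* had the largest rise of the 10 genes, 2.90-fold, with a log2 change of 1.54 (standard error 0.18, adjusted p = 8.89e-07). Its exons share 2130 of 14164 bases with *Tubgcp4* on the opposite strand, whose own mean level was 2.47 to 3.58 FPKM per group.

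*Abraxas1* (chromosome 5, 100805192 to 100820965, minus strand), the scaffold of the BRCA1-A complex, did not pass between the stages. Its log2 change was 0.17 (standard error 0.14, adjusted p = 0.311). Within SN oocytes the change was 0.33 (standard error 0.19), with every SN-MII oocyte above every SN GV oocyte on both scales. Within NSN oocytes it was 0.0025 (standard error 0.21), and the stages overlapped. These values hold the MII libraries that served to choose *Abraxas1* and are a description, and whether SN and NSN oocytes differed in this change was not tested.

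*Mum1* (chromosome 10, 80226434 to 80243903, plus strand) was the only one of the 10 genes called lower. It was at 54.1, 58.8 and 49.2 FPKM in SN GV oocytes and 58.0, 62.2 and 59.1 FPKM in NSN GV oocytes. At MII it was at 12.4, 11.7, 17.6 and 25.7 FPKM in SN oocytes and at 5.68, 7.19 and 4.05 FPKM in NSN oocytes. The lowest GV oocyte was above the highest MII oocyte. The fall with stage was 6.14-fold in counts, a log2 change of −2.62 (standard error 0.21, adjusted p = 1.40e-08). The stage test averages both types, but it holds the MII libraries that served to choose *Mum1*, so its p may not be free of that choice. The values within each type hold these libraries too and are a description. They were −1.42 (standard error 0.27) within SN oocytes and −3.81 (standard error 0.33) within NSN oocytes.

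*Trp53* (chromosome 11, 69580359 to 69591873, plus strand), the p53 gene, was nearly constant among GV oocytes. It was at 23.7, 26.9 and 25.7 FPKM in SN GV and at 25.5, 26.2 and 28.5 FPKM in NSN GV oocytes. It was at 55.6, 58.3, 55.8 and 71.0 FPKM in SN-MII and at 42.4, 49.8 and 66.6 FPKM in NSN-MII oocytes. The stages did not overlap, and the highest value in each MII group came from one of the pair of oocytes that stood apart. *Trp53* rose 2.44-fold, a log2 change of 1.29 (standard error 0.18, adjusted p = 6.65e-06), and leaving out any 1 library gave 1.10 to 1.35.

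*Trp63* (chromosome 16, 25683763 to 25892102, plus strand), the p53 relative of the germ line, was at 7.29, 8.05 and 10.2 FPKM in SN GV and 11.7, 5.64 and 8.21 FPKM in NSN GV oocytes. It was at 15.6, 13.8, 11.8 and 12.7 FPKM in SN-MII and 20.9, 15.1 and 12.2 FPKM in NSN-MII oocytes. In FPKM the stages were separate by a narrow margin, and in CPM (counts scaled to the library total, after TMM normalization) they overlapped. *Trp63* rose 1.85-fold, a log2 change of 0.89 (standard error 0.23, adjusted p = 0.00235), the smallest of the called changes.

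**Figure D2:**
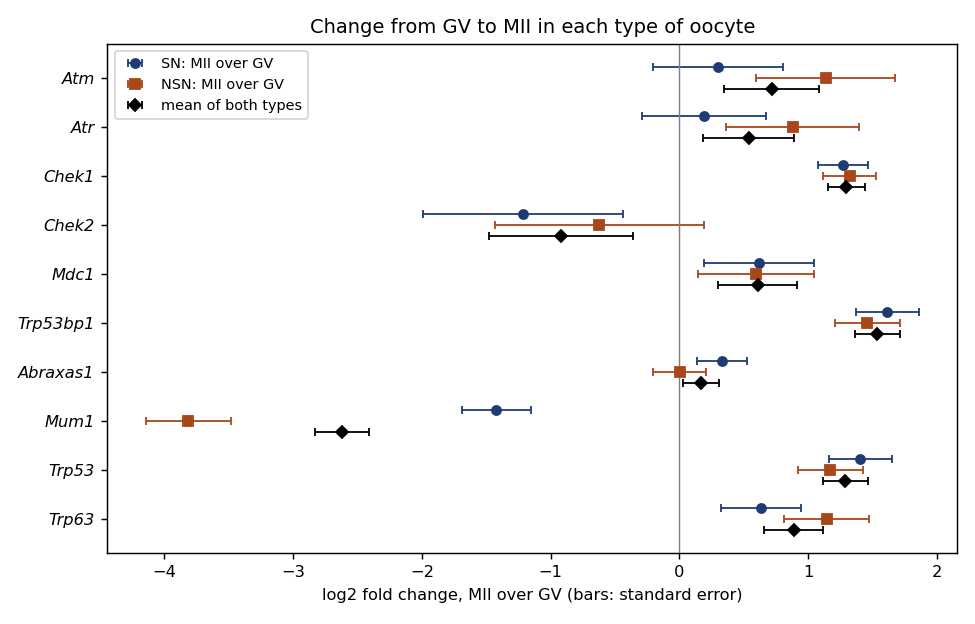
The log2 fold change from GV to MII of each of the 10 genes, within SN oocytes, within NSN oocytes and as the mean of both types, on the x axis, with bars for the standard error. *Chek1*, *Trp53bp1* and *Trp53* lie between 1.17 and 1.61 in both types, while *Mum1* lies at −1.42 in SN and −3.81 in NSN oocytes.

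Within each type, the groups were also compared by overlap in CPM. In SN oocytes 6 genes were higher in every MII than in every GV oocyte (*Chek1*, *Mdc1*, *Trp53bp1*, *Abraxas1*, *Trp53* and *Trp63*) and 1, *Mum1*, was lower, against 28.9% and 34.5% of all genes tested. In NSN oocytes 4 were higher (*Chek1*, *Trp53bp1*, *Trp53* and *Trp63*), and *Mum1* was lower, against 27.8% and 33.2%. *Abraxas1* and *Mum1* were chosen on the MII libraries in these counts, and nothing is read from their place in them. Over both types together 3 of the 10 were higher without overlap and 1 was lower, against 20.9% and 26.5% of all genes tested. The larger share of the counts in the 10 most abundant genes and the lower number of genes detected moved with stage, and so did *Cyp19a1*, at 20.04 to 22.3 FPKM on average in the GV groups and 36.1 to 42.3 FPKM in the MII groups. The other cumulus and granulosa markers tested did not all move the same way. *Kitl* rose (log2 change 1.26), while *Has2* (0.53), *Nr5a2* (−0.53) and *Ptgs2* (−0.70) did not pass. The part of the library traits and of these markers in the changes with stage was not tested.

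The last 100 bases of the annotated transcript of each checkpoint gene were read, because the libraries were primed from the poly(A) tail. The letters sought are known from polyadenylation and from its control in the oocyte cytoplasm. The polyadenylation hexamer was searched as AATAAA or ATTAAA, and the cytoplasmic polyadenylation element as TTTTAT or TTTTAAT, on the transcript strand only, in 1 coding transcript for each gene. Of 21838 coding genes, 73.9% held a hexamer in this window, 16.4% an element and 13.1% both. The sequences below are printed 5′ to 3′ on the transcript strand from GRCm38, with the searched letters in capitals. They are from a gene that rose and held both, the gene called lower, and another gene that rose.

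*Trp53*, element, chr11:69591814-69591843, plus strand: ttttttacccctTTTTATatatcaatttcc
*Trp53*, hexamer, chr11:69591840-69591869, plus strand: ttcctattttacAATAAAattttgttatca
*Mum1*, elements, chr10:80243850-80243879, plus strand: tgtctggTTTTATtttTTTTAATtattttg
*Trp53bp1*, hexamer, chr2:121194840-121194869, minus strand: cagtaagcactcAATAAAgacttcaattat

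In *Trp53* 20 bases lay between the element and the hexamer. *Mum1* held 2 elements and no hexamer within this window, *Trp53bp1* a hexamer alone, and *Chek1* and *Atr* no match. *Trp63* held 2 hexamers and *Atm*, *Chek2*, *Mdc1* and *Abraxas1* 1 each, without an element. *Trp53*, which rose, and *Mum1*, which fell, held an element, and *Chek1*, *Trp53bp1* and *Trp63* rose with none in these letters. The transcript read was 9.62 kb for *Trp53bp1* and 3.80 kb for *Chek1*, against assigned lengths of 1.23 to 1.39 and 1.95 to 2.27 kb. The ends read may therefore not be those expressed. The part of polyadenylation in these changes was not tested.

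The comparison of NSN GV with SN GV oocytes asks whether checkpoint RNAs already differ before meiosis resumes. All 10 genes were tested and 0 were called by edgeR, and 0 had an unadjusted p under 0.05. Over all 10839 genes, 0 (0%) were called by edgeR and 0 by DESeq2, while 190 (1.75%) in edgeR and 233 in DESeq2 had an unadjusted p under 0.05. The log2 changes, NSN over SN, ran from −0.47 for *Atr* (standard error 0.52) to 0.57 for *Chek2* (standard error 0.66). Leaving out 1 library moved *Atr* between −0.96 and −0.035 and *Chek2* between 0.12 and 1.47. The abundant genes were narrower, with −0.12 for *Chek1* (standard error 0.16), 0.07 for *Trp53bp1* (0.21), 0.04 for *Trp53* (0.19) and 0.17 for *Mum1* (0.18). Of the 10 genes 5 lay above 0 and 5 below, with a median of 0.0033, against 0.0070 over all genes. In simulated counts with these libraries' sizes and spread, edgeR called 69 of 100 genes changed by 2 on the log2 scale and 13 of 100 changed by 1, so changes of the smaller size would mostly have been missed.

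*Abraxas1* was the 1 gene whose GV groups did not overlap. It was at 52.4, 55.3 and 49.99 FPKM in SN GV oocytes and at 39.7, 45.4 and 44.7 FPKM in NSN GV oocytes. Every NSN GV oocyte was below every SN GV oocyte in FPKM and in CPM scaled within the GV table, whereas in CPM scaled over all 13 libraries the highest NSN GV value (78.9) lay just above the lowest SN GV value (78.6). The log2 change was −0.28 (standard error 0.18, adjusted p = 0.99997). Groups that did not overlap in this direction were found for 3.22% of the genes tested, and for 6.57% in either direction.

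At MII, NSN over SN, *Mum1* and *Abraxas1* had lower values in every NSN-MII than in every SN-MII oocyte, and the other 8 genes overlapped. The background was 10.2% of 10028 genes without overlap, 5.61% in the lower direction, and 0.259% called. This contrast served to choose both genes, so nothing is read from their count. *Abraxas1* was at 60.6, 56.5, 57.0 and 63.0 FPKM in SN-MII and at 44.3, 36.4 and 39.9 FPKM in NSN-MII oocytes, a log2 change of −0.62 (standard error 0.17). *Mum1* was 4.73-fold lower in counts, a log2 change of −2.24 (standard error 0.34). Among the other 8 genes, the changes were 1.16 for *Chek2* (standard error 0.82), 0.74 for *Atm* (0.50), 0.51 for *Trp63* (0.24) and −0.22 for *Trp53* (0.23). *Atr*, *Chek1*, *Mdc1* and *Trp53bp1* lay between −0.11 and 0.20. Leaving out 1 library moved *Atr* between −0.30 (without the first NSN-MII oocyte) and 0.60 (without the third) and *Mdc1* between −0.64 and 0.36 (without the same oocytes). *Trp53bp1* moved between −0.38 and 0.023 and *Chek1* between −0.28 and 0.022, the lower values without the third NSN-MII oocyte and the higher without the first, so these 4 have no settled direction. In counts, *Atm*, *Atr*, *Mdc1* and *Trp63* were highest in the first and lowest in the third NSN-MII oocyte, while *Chek1*, *Trp53bp1* and *Trp53* were highest in the third.

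**Figure D3:**
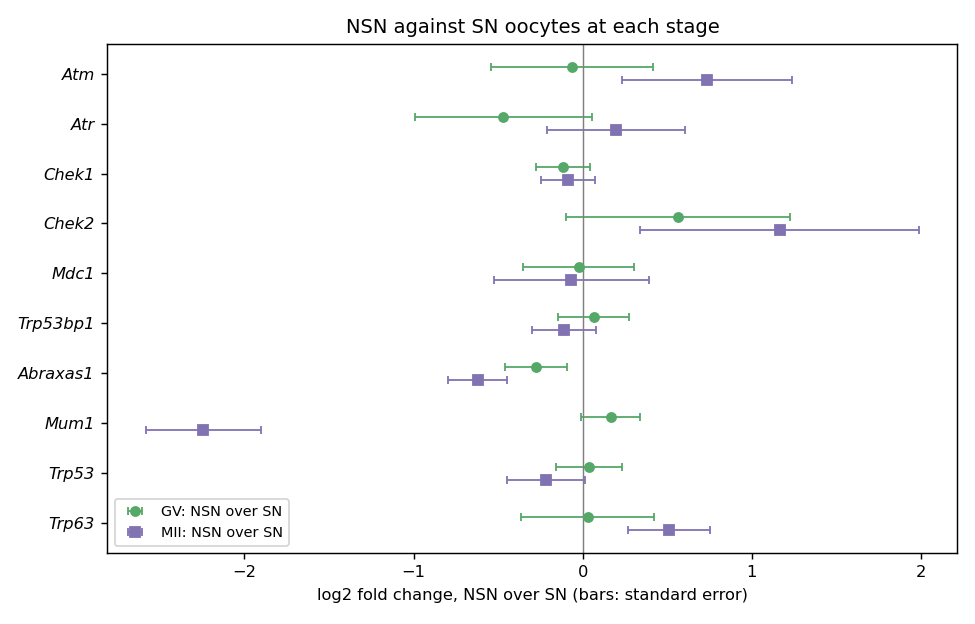
The log2 fold change of NSN over SN oocytes for each of the 10 genes, at GV and at MII, on the x axis, with bars for the standard error. At GV the 10 values lie between −0.47 and 0.57. At MII *Mum1* lies at −2.24 and *Abraxas1* at −0.62, the values that served to choose them.

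The order of the groups in CPM differed by gene. *Chek1* and *Trp53* were highest in SN-MII, then in NSN-MII oocytes, and the step down to the GV groups was the only one without overlap. *Abraxas1* ran from SN-MII (108.9 ± 10.6 CPM, SD, n = 4) to SN GV (86.7 ± 7.07, n = 3), NSN-MII (71.1 ± 9.68, n = 3) and NSN GV (70.9 ± 11.9, n = 3), and only the first step was without overlap. *Mum1* ran from NSN GV (141.8 ± 18.7 CPM, n = 3) to SN GV (127.8 ± 20.3, n = 3), SN-MII (47.7 ± 21.2, n = 4) and NSN-MII (10.1 ± 0.48, n = 3), and the last steps, from SN GV to SN-MII and on to NSN-MII, were without overlap. *Atm*, *Atr*, *Chek2* and *Mdc1* overlapped at every step.

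The FPKM of some of these genes also moved with the transcript length that the quantification assigned in each oocyte. Dividing a count by its FPKM gives that length, once each library is scaled by its genes with a single annotated transcript. It was steady for *Trp53* (1.69 to 1.74 kb), *Abraxas1* (1.59 to 1.66 kb), *Trp53bp1* (1.23 to 1.39 kb) and *Chek1* (1.95 to 2.27 kb). It ranged from 1.53 to 10.5 kb for *Atm*, from 0.283 to 2.39 kb for *Chek2* and from 1.95 to 7.86 kb for *Mdc1*. The first SN GV oocyte had 60 *Atm* counts and 0.70 FPKM, and the third had 73 counts and 5.97 FPKM. Over 6849 genes with at least 20 counts in every library, the longest was 1.21 times the shortest in the median gene and 2.15 times at the 90th percentile, against 6.87 times for *Atm*, 4.04 for *Mdc1*, 2.23 for *Atr*, 1.89 for *Mum1* and 1.60 for *Trp63*.

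For *Mum1* the assigned length differed between the groups. It was 2.36 to 2.65 kb in the SN-MII oocytes and 1.40 to 2.01 kb in the NSN-MII oocytes, with 61 to 84 counts in each of the latter. The difference between the MII groups was −2.24 in counts, −1.39 on the log2(FPKM + 1) scale and −1.53 on the log2(FPKM + 0.1) scale. These values differ in unit, model and pseudocount together, and the part of the assigned length was not tested. For *Trp53bp1* the assigned length of 1.23 to 1.39 kb is well under its longest annotated transcript of 9.62 kb. In CPM, which is not scaled by length, it was at 339.1 ± 74.99 (SD, n = 3) in SN GV oocytes and *Chek1* at 609.7 ± 85.3 (SD, n = 3), while their FPKM overlapped.

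**Figure D4:**
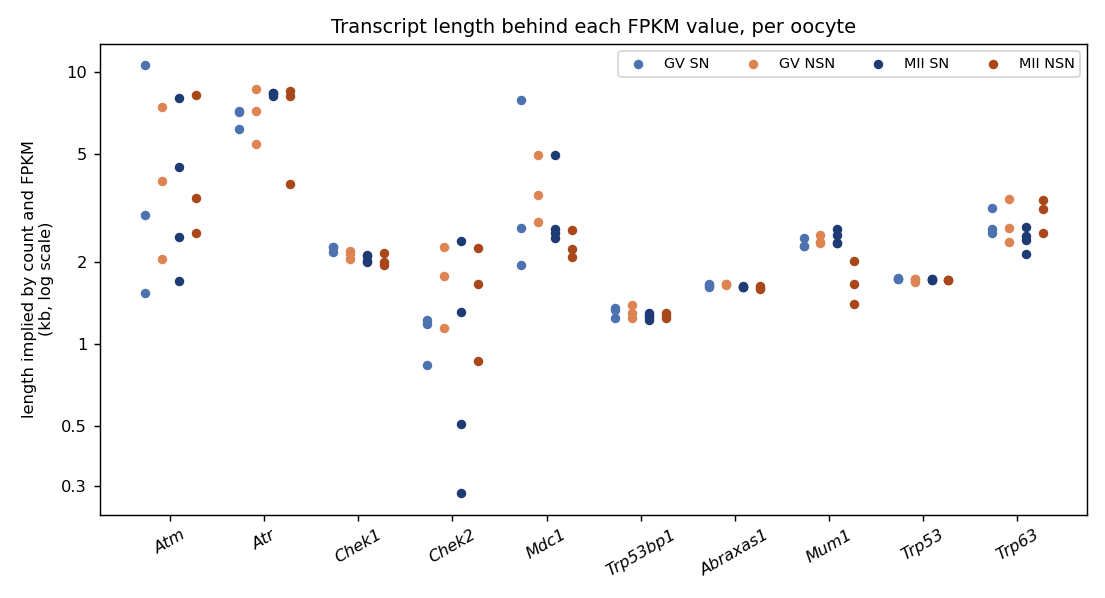
The transcript length, in kb on a log axis, that each oocyte's count and FPKM imply for each of the 10 genes. Points are oocytes coloured by group. The length is steady for *Trp53* and *Abraxas1*, spans 1.53 to 10.5 kb for *Atm*, and for *Mum1* is shorter in the 3 NSN-MII oocytes (1.40 to 2.01 kb) than in the others.

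The partners of these genes were followed through 7 lists of 71 genes in all. Between GV and MII 66 could be tested, and 29 rose, 20 fell and 17 did not pass. The called share was 74.2%, near the 68.6% of all genes, and the counts by list below stand against 31.7% of all genes called higher and 36.9% called lower. Rises and falls were mixed within the lists. No gene of these lists was called in NSN against SN oocytes by edgeR. At GV 1 of 66, *Cdc25a*, had an unadjusted p under 0.05, with a log2 change of −0.70 (standard error 0.27, adjusted p = 0.99997), and DESeq2 called 0. At MII 6 of 61 had an unadjusted p under 0.05, against 9.38% of all genes tested, and DESeq2 called 1, *H2afx*, the histone variant phosphorylated at breaks, at 46.4 ± 20.7 CPM in NSN-MII (SD, n = 3) and 113.7 ± 61.2 CPM in SN-MII oocytes (SD, n = 4). Its adjusted p in edgeR was 0.228. In CPM scaled over all 13 libraries it was at 89.0, 86.8, 97.8 and 227.2 in SN-MII oocytes. In NSN-MII oocytes it was at 39.5, 35.5 and 79.5. The fourth SN-MII oocyte thus raised the SN-MII mean, and the third NSN-MII oocyte raised the NSN-MII mean. Every NSN-MII oocyte was below every SN-MII oocyte, as for 5.61% of all genes tested. *Cdc25a* and *H2afx* were named after their values were seen.

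Upstream of the kinases, the list of the MRN complex and ATM activation had 3 genes that rose and 3 that fell. *Rad50*, the ATPase of the complex that finds broken ends, rose from 172.1 ± 22.8 CPM (SD, n = 6) to 359.7 ± 66.0 CPM (SD, n = 7). *Rnf8*, a ubiquitin ligase that MDC1 recruits, fell from 580.9 ± 76.2 to 178.7 ± 66.6 CPM. The list of ATR activation and the 9-1-1 clamp had 7 that rose, 5 that fell and 1, *Etaa1*, that did not pass. *Hus1*, a ring subunit of the clamp, rose from 122.8 ± 47.4 to 324.7 ± 83.9 CPM, and *Rpa2*, a subunit of the protein that coats single-stranded DNA, fell by 4.74 on the log2 scale, from 167.8 ± 21.8 to 6.14 ± 2.71 CPM. Of the other PIKK kinases and their TTT chaperone complex, 3 rose, 2 fell and 2 did not pass. *Smg1*, the kinase of nonsense-mediated decay, rose by a log2 change of 1.89 (standard error 0.24), while *Tti2*, a TTT subunit, had 17 to 185.0 counts in GV and 0 to 8 counts in MII oocytes.

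At the break, the BRCA1-A and chromatin list had 4 that rose, 4 that fell and 2 that did not pass. *Uimc1*, which encodes RAP80, the ubiquitin-binding partner of Abraxas, fell from 57.6 ± 7.79 to 5.86 ± 1.01 CPM, a log2 change of −3.30 (standard error 0.19, adjusted p = 3.45e-10). *Paxip1*, an adaptor that joins 53BP1, rose from 10.4 ± 1.29 to 29.8 ± 7.78 CPM. *Abraxas1* itself was at 78.8 ± 12.3 CPM in GV (SD, n = 6) and 92.7 ± 22.3 CPM in MII oocytes (SD, n = 7).

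Downstream of CHK1, the effectors on CDK1 had 2 that rose, 3 that fell and 2 that did not pass. *Wee2*, the oocyte kinase that restrains CDK1, rose from 1068 ± 196.8 to 1696 ± 259.6 CPM, and *Cdc25c*, a phosphatase that activates CDK1, had 127 to 191 counts in GV and 0 to 14 counts in MII oocytes. Of 10 genes of the p53 family and its regulators, 7 rose, 1 fell and 2 did not pass, where 31.7% of all genes rose and 36.9% fell, with a median log2 change of 1.13. *Mdm2*, the ubiquitin ligase of p53, rose from 176.0 ± 33.3 to 513.3 ± 70.2 CPM (log2 change 1.54, standard error 0.15, adjusted p = 1.77e-07), and *Trp73*, the third family member, fell from 38.9 ± 10.4 to 6.83 ± 2.13 CPM. Of 18 p53 target genes, 13 could be tested, 3 rose, 2 fell and 8 did not pass. *Rrm2b*, a ribonucleotide reductase subunit, rose from 179.7 ± 59.3 to 655.7 ± 97.4 CPM and *Bax*, which opens the mitochondrial membrane in apoptosis, fell from 10.7 ± 3.22 to 2.06 ± 0.50 CPM.

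**Figure D5:**
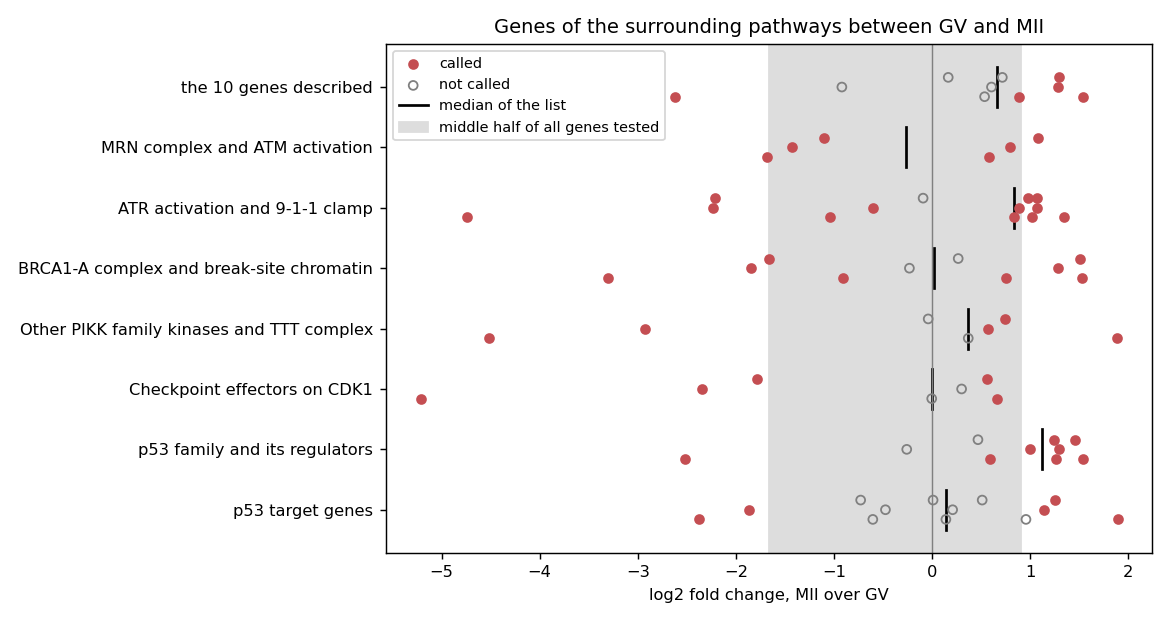
The log2 fold change from GV to MII, on the x axis, of the 10 genes and of the tested genes of 7 pathway lists, 1 point for each gene, filled where called, with a line at each list's median. The grey band is the interquartile range of all 11375 genes tested, from −1.66 to 0.91. The regulators of p53 have a median of 1.13, and in every list some genes lie on each side of 0.

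Finally, the gene with the nearest profile to each of the 10 was sought over the 13 libraries, as the smallest Euclidean distance between standardized log2(FPKM + 1) values among 11524 genes. *Chek1* lay closest to *Birc3* (distance 0.218, against a median of 5.59 to all genes), *Trp53* to *Cept1* (0.450), *Trp53bp1* to *Mfap3* (0.470) and *Mum1* to *Ppan* (0.495). *Ppan* was at 109.9 ± 0.92 FPKM in SN GV, 107.0 ± 2.75 in NSN GV, 61.8 ± 9.52 in SN-MII and 41.8 ± 4.17 in NSN-MII oocytes. *Trp63* lay closest to *Wdr11* (0.856), *Abraxas1* to *Mfrp* (1.26) and *Atr* to *Epb41* (1.30). *Mdc1* (*Gm5781*, 1.70), *Atm* (*Ccdc137*, 2.13) and *Chek2* (*Arl5c*, 2.15) had no gene as close. Among the 10 genes, *Chek1* and *Trp53bp1* were nearest to each other (0.712), and the next nearest was *Trp53* to *Chek1* (0.785). These distances share the libraries and the step between the stages, and are a description.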

How the data were processed

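Single-oocyte RNA was amplified by SMART-seq2, in which oligo(dT) primes the poly(A) tail and no molecular identifiers are used. According to the methods and the submitters' processing notes, the authors trimmed reads with Trim Galore 0.4.4, aligned them to mm10 with Bowtie2 2.3.5 and quantified genes with RSEM 1.2.28. They deposited expected counts, 1 table per stage, and FPKM values, 1 table for all 13 libraries. RSEM divides multi-mapping reads between genes, and the expected count was not a whole number for as much as 14.0% of the genes in a library.

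Expected counts were rounded. Genes were filtered with filterByExpr (minimum count 10), scaled by TMM and tested with edgeR 4.0.16 (R 4.3.3), quasi-likelihood, with Benjamini-Hochberg adjustment over all genes tested; an adjusted p under 0.05 was called. NSN and SN oocytes were fitted within each stage. MII and GV oocytes were compared in a fit of 4 group means over all libraries, so the stage test spans both count tables. Changes within SN and within NSN oocytes come from that fit. Total counts per library were 7140416 to 8846287, and no library was a copy of another. Scripts were tested on simulated data. Alternatives were DESeq2 1.42.0, limma 3.58.1 on log2(FPKM + 1) or log2(FPKM + 0.1), other filters and scaling, thinned counts, a replicate block and leaving out each library. Fold changes in FPKM are on the log2(value + pseudocount) scale, which understates those of low genes.

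The 10 genes and the gene lists (7 pathway lists and 3 lists of oocyte, cumulus and granulosa, and immune markers) were chosen with earlier results of these data known. Named from the lists were genes called in NSN against SN oocytes and, between stages, the called gene with the largest rise and the one with the largest fall in each pathway list among those whose stages did not overlap, and for each of the 10 the gene with the nearest profile. No listed gene was called in NSN against SN oocytes by edgeR, and *Cdc25a* and *H2afx* were named outside this rule, after their values were seen. Gene positions and transcripts are from GENCODE M21 (GRCm38), and the authors' annotation may differ.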

Additional observations from a re-analysis of the deposited data

Results flagged for a closer look

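In the SN-MII group, the only one of 4 oocytes, 2 values stood apart from the other 3 by Dixon's test at its 95% critical value, out of 20 sets checked (10 genes in FPKM and in CPM). Chance alone sets a value apart in about 1 in 20 such sets. *Atm* was at 5.87 FPKM in the first oocyte against 1.10 to 1.73 in the others (ratio 0.868). *Trp53* was at 147.5 CPM in the fourth oocyte against 106.0 to 109.7 in the others (ratio 0.912).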

How the results depend on the processing

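Between GV and MII, the calls of *Chek1*, *Trp53bp1*, *Trp53*, *Trp63* and *Mum1* kept their direction and their side of the threshold in all 22 alternatives, and 7452 to 8809 genes were called. With limma on FPKM without a filter 36.2% of the calls were higher, against 46.2% in the main fit, and the median over all genes moved from −0.10 to −0.26 without a filter on counts. *Atm* also passed in 3 alternatives (adjusted p = 0.0327 to 0.0435, among a range of 0.0327 to 0.639 over all 22) and *Mdc1* in 1 (adjusted p = 0.00491, range to 0.397). At GV 0 genes were called in every setting, with 58 to 709 at an unadjusted p under 0.05. The direction of *Trp63* at GV was reversed in limma on FPKM (−0.038 with or without a filter, −0.047 with a pseudocount of 0.1) and in the fit of all 13 libraries (−0.0071). Leaving out 1 library at GV gave −0.43 to 0.31 for *Trp63*, −0.60 to 0.24 for *Atm*, −0.19 to 0.15 for *Mdc1*, −0.045 to 0.23 for *Trp53bp1* and −0.032 to 0.095 for *Trp53*. At MII 26 genes were called, against 217 with DESeq2, 89 without a filter on counts, 69 in the fit of all libraries, and 9, 5 and 2 with limma on FPKM (pseudocounts of 1 and 0.1, and no filter). Leaving out 1 library gave 2 (without the first NSN-MII oocyte) to 233 (without the third). Without the second SN-MII oocyte it gave 7, without the third 4, without the fourth 9, and without the second NSN-MII oocyte 5. The cause was not tested. In FPKM the MII difference of *Mum1* was −1.39 to −1.53 and that of *Chek2* 0.09 (0.52 with a pseudocount of 0.1), and leaving out 1 library moved *Atm* between 0.20 and 1.08, *Chek2* between 0.64 and 1.72, *Trp63* between 0.30 and 0.69 and *Trp53* between −0.53 and −0.032. Replicate numbers are shared between groups. The deviations of same-numbered oocytes from their group means had correlations of −0.45 to −0.17 at GV and −0.13 to 0.095 at MII. In the fit of all libraries the 18 same-numbered pairs ran from −0.42 to 0.21. With 3 such pairs at each stage, these values cannot decide whether same-numbered oocytes shared an origin. The main fits used no pairing. A replicate block left 2 calls at MII, 0 at GV and 7452 between stages, turned *Trp63* at GV to −0.067 and let *Atm* pass between stages (0.81, adjusted p = 0.0355). The counts of *Chek2* (1 to 49) and *Atm* (24 to 208) limit what these libraries can show for both genes.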
